A study of Danio rerio with 12 samples.

Results

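The genes described here encode ligands, a latency protein and targets of transforming growth factor beta (TGF-beta): the ligand genes tgfb1a, tgfb1b, tgfb2 and tgfb3, the latent TGF-beta binding protein genes ltbp1 and ltbp3, the connective tissue growth factor genes ccn2a and ccn2b, and the inhibitory SMAD gene smad7. They were chosen by name, as a list of 9 genes of the pathway, with earlier results of these data known. Of the 9, 8 could be matched to an Ensembl ID among the 32520 genes of the count tables. No ID was paired with ltbp3 in the symbol tables used here, so it was not analysed here. Reads of poly-A RNA were counted in zebrafish muscle at the age of 20 months. Trunk muscle was set beside extraocular muscle (EOM), which turns the eyeball. Wild-type (WT) fish of strain AB were set against fish of strain AB with the genotype desma-/-;desmb-/-, that is, with mutations in both zebrafish genes for desmin, the intermediate filament protein that links myofibrils at the Z-disc. The 4 groups, WT EOM, mutant EOM, WT trunk and mutant trunk, held 3 libraries each. The WT line is the one in which the mutant was made, per the labels, whereas the series text speaks of a knock-down. The labels give neither the number of fish per library nor whether an EOM and a trunk library share a fish, so p-values measure the spread between these samples, which may be partly technical. The study asked why EOM withstands muscular dystrophy, and the comparisons below ask how these genes differ between genotypes and between muscles.

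TGF-beta is made as a precursor whose cleaved propeptide stays wrapped around the mature ligand and keeps it latent. Latent TGF-beta binding proteins tether this complex to the extracellular matrix, from which integrins, proteases or thrombospondin release the ligand. Free ligand brings type II and type I receptors together, the receptors phosphorylate SMAD2 and SMAD3, and these enter the nucleus with SMAD4. The mammalian gene for connective tissue growth factor is a classical target, and it also responds to the mechanically regulated factors YAP and TAZ. SMAD7 is induced by the pathway and blocks its receptors, a negative feedback. In mammalian skeletal muscle the pathway is known for its part in fibrosis after injury and in dystrophy.

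The libraries held 46.1 to 74.1 M (mega) sense reads in genes. Levels are in CPM, the reads of a gene in each 1 M reads, on library sizes scaled by the trimmed mean of M values (TMM), and gene levels are compared between groups, not between genes. At this depth the members had up to 2984 sense reads per library and the fewest for ccn2b in trunk, still far above the floor of 3 reads, and all 8 passed the filter on low counts in every comparison. Of the copies listed under the symbol DES, ENSDARG00000058656.6 lay at 553 to 691 CPM in the 6 WT libraries and at 17.5 to 48.7 CPM in the 6 mutant libraries. The other copy, ENSDARG00000005221.8, was at 0.0604 to 0.176 CPM in all 12 and does not check the labels. Labelled as myofibres, the samples held myofibre genes at a summed 35585 CPM or more, and also RNA of other cells. Summed over 9 myofibre IDs, WT EOM held 45881 to 52730 CPM and mutant EOM 35585 to 41955 CPM. In trunk these sums overlapped between the genotypes. Summed over 10 endothelial IDs, WT EOM held 259 to 340 CPM and mutant EOM 228 to 243 CPM. For trunk the endothelial sums were 522 to 583 CPM in WT and 435 to 476 CPM in mutants. The summed level of 13 macrophage and leukocyte IDs was 645 to 678 CPM in WT EOM and 923 to 1173 CPM in mutant EOM, and 216 to 232 CPM in WT trunk and 392 to 676 CPM in mutant trunk. All of these IDs were detected in every group except lyz, which had no read in mutant trunk. The summed level of 12 fibroblast IDs, all detected in every group, was 1749 to 2163 CPM in WT EOM and 2045 to 2513 CPM in mutant EOM, and 688 to 1016 CPM in WT trunk and 1161 to 1378 CPM in mutant trunk. In bulk tissue, fewer cells of a type and less RNA per cell cannot be told apart, and the part of these cell markers in the results below was not tested.

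None of the 8 members passed the threshold between mutant and WT fish in either muscle. In EOM, 0 of 8 members were called at an adjusted p-value under 0.05 (edgeR quasi-likelihood test, Benjamini-Hochberg adjustment over all genes), where 3.56% of all 18980 tested genes were. The members ltbp1 and ccn2b had an unadjusted p under 0.05 there, 2 of 8 against 18.5% of all genes. In trunk 0 of 8 were called, against 8.4% of 17342 genes, and 0 of 8 had an unadjusted p under 0.05, against 24.8% of all genes. DESeq2 called 0 of 8 in EOM and 0 of 8 in trunk. The median log2 fold change of the members was 0.20 in EOM and 0.05 in trunk, beside −0.02 and −0.01 over all genes. The 95% intervals of the single genes reached from −0.69 to 1.22 on the log2 scale in EOM and from −0.81 to 0.70 in trunk, and with 3 libraries a group changes inside a gene's interval were not resolved.

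**Figure D1:**
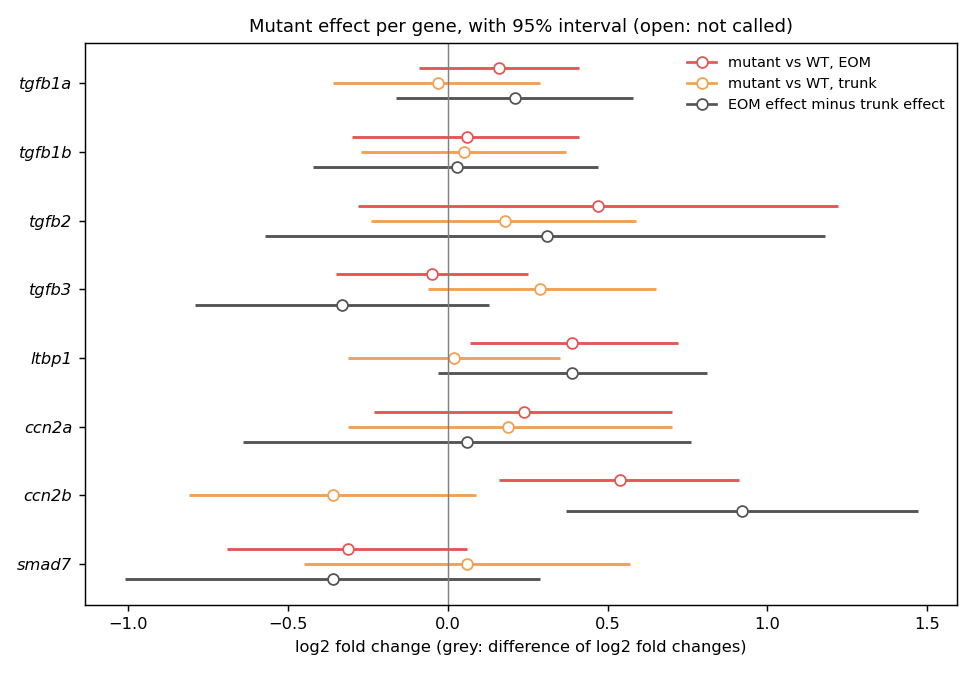
Log2 fold change of mutant over WT in EOM (red) and trunk (orange) and the difference of both (grey) for each of 8 genes, with lines for 95% intervals of the edgeR quasi-likelihood fit. All symbols are open, since no value passed the threshold; the intervals of ltbp1 and ccn2b in EOM and of the ccn2b difference lie above 0.

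More members were called between the muscles than between the genotypes. In WT fish 6 of 8 members were called between EOM and trunk, with tgfb1a, tgfb3, ltbp1, ccn2a and ccn2b higher in EOM and tgfb1b higher in trunk, the last a direction that turned with unscaled library totals. In mutant fish the same 6 genes were called in the same directions. Such calls were common in general: 48.8% of 18430 genes were called between the WT muscles, 25.6% higher and 23.2% lower in EOM, and 53.1% of 18698 genes between the mutant muscles, 27.4% higher and 25.7% lower. The EOM and trunk libraries of 6 of 8 members did not overlap in either genotype, where 60.3% of all genes did not in WT and 61.4% did not in mutants. The median log2 fold change of the members was 1.1 in WT and 0.98 in mutants, beside 0.06 and 0.04 over all genes. Both muscle comparisons use the same libraries as the genotype comparisons. Beside these differences, the summed fibroblast markers were higher in EOM than in trunk in every library of either genotype, and so were the summed nerve and Schwann cell markers of 10 IDs, at 1735 to 2043 CPM in WT EOM and 482 to 633 CPM in WT trunk. The summed level of 10 endothelial IDs was lower in EOM, with 259 to 340 CPM in WT EOM and 522 to 583 CPM in WT trunk. So was that of 9 myofibre IDs, at 45881 to 52730 CPM in WT EOM and 113853 to 142929 CPM in WT trunk. The single myofibre IDs were split, with 3 of 9 called higher and 6 called lower in EOM in either genotype. Their sum therefore does not stand for each ID. Erythrocyte markers of 6 IDs were higher in EOM, at 1035 to 2287 CPM in WT EOM and 340.1 to 463 CPM in WT trunk. Photoreceptor and retina markers of 19 IDs were at 39.9 to 288 CPM in WT EOM and 1.79 to 43.8 CPM in WT trunk, which overlap, and at 62.3 to 164 CPM in mutant EOM and 1.03 to 1.34 CPM in mutant trunk, where 5 of the IDs were at 0. In mutants the myofibre sums were 35585 to 41955 CPM in EOM and 120879 to 156063 CPM in trunk, and the erythrocyte sums 703 to 1010.2 and 281 to 457 CPM.

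**Figure D2:**
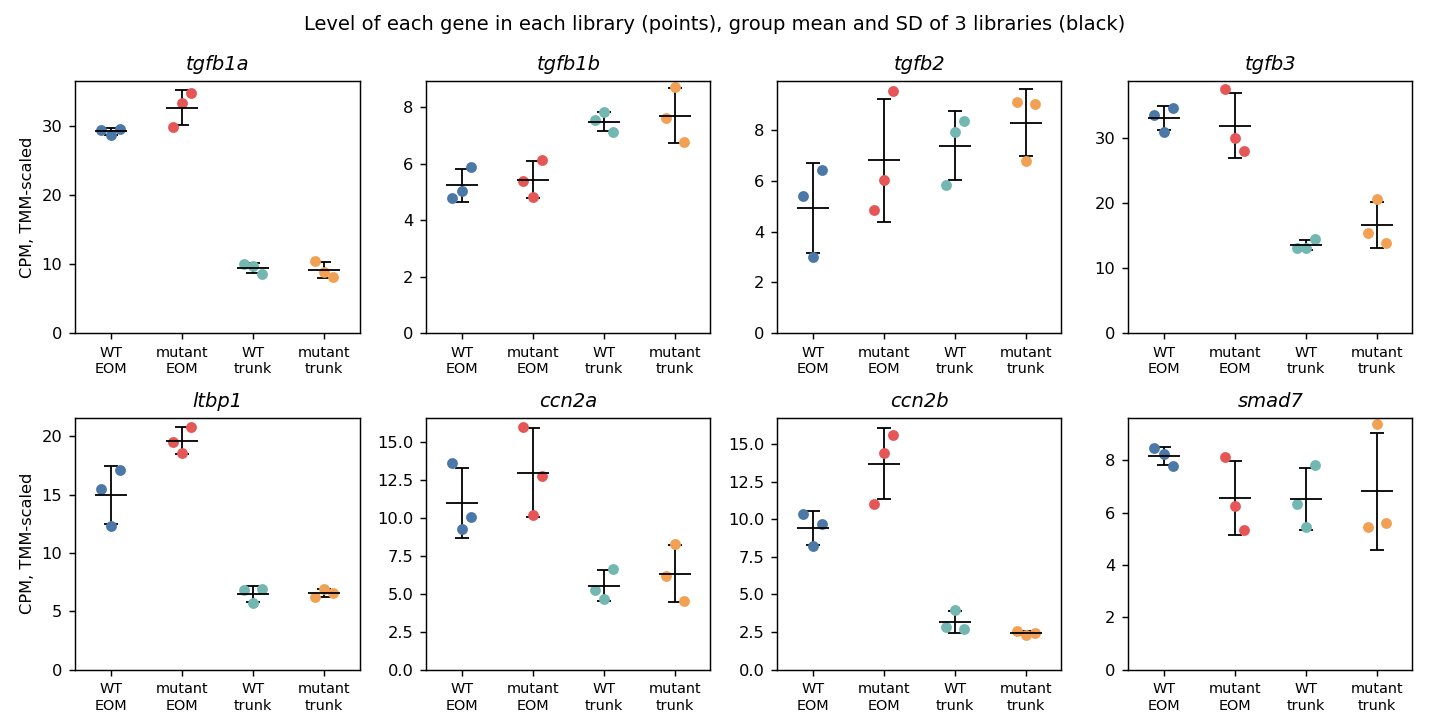
Level of 8 genes in CPM on TMM-scaled library sizes, 1 panel a gene and each with its own axis from 0; points are the 3 libraries of each group, the black bar is the mean and the error bar its SD. The EOM libraries lie above the trunk libraries for tgfb1a, tgfb3, ltbp1, ccn2a and ccn2b and under them for tgfb1b, whose direction turned with unscaled library totals. Within EOM the genotypes do not overlap for tgfb1a, ltbp1 and ccn2b, and within trunk they do not for ccn2b.

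Among the ligand genes, tgfb1a (ENSDARG00000041502.3) and tgfb1b (ENSDARG00000034895.9) are zebrafish counterparts of the same mammalian gene, TGFB1, and their levels went opposite ways between the muscles, for tgfb1b only with scaled libraries. Replicates 1, 2 and 3 held 29.5, 28.7 and 29.6 CPM of tgfb1a in WT EOM and 29.9, 33.3 and 34.8 CPM in mutant EOM. Trunk replicates held 9.94, 9.79 and 8.52 CPM in WT and 10.4, 8.88 and 8.15 CPM in mutants. The 3 mutant EOM libraries lay above the 3 WT EOM libraries, by a narrow margin for replicate 1, and all 6 EOM libraries lay far above all 6 trunk libraries. The mutant effect on tgfb1a was 0.16 ± 0.11 (log2 fold change ± SE) in EOM (edgeR, adjusted p = 0.483) and −0.03 ± 0.15 in trunk (adjusted p = 0.917). Between muscles tgfb1a was 3.12-fold higher in WT EOM (log2 value 1.64 ± 0.13, edgeR, adjusted p = 2.37e-05) and 3.54-fold higher in mutant EOM (1.82 ± 0.13, adjusted p = 6.77e-07).

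The paralog tgfb1b was the only member called as lower in EOM. Its replicates held 4.78, 5.02 and 5.89 CPM in WT EOM and 5.40, 4.81 and 6.12 CPM in mutant EOM. In trunk the values were 7.53, 7.82 and 7.13 CPM in WT and 7.62, 8.73 and 6.78 CPM in mutants. The genotypes overlapped in each muscle, whereas the EOM libraries all lay under the trunk libraries. The log2 fold change of EOM over trunk was −0.52 ± 0.16 in WT (edgeR, adjusted p = 0.0238) and −0.51 ± 0.15 in mutants (adjusted p = 0.0123). That direction rested on the scaling of the libraries. With unscaled library totals, which move the median of all genes from 0.06 to 0.66 in WT and from 0.04 to 0.79 in mutants, tgfb1b came to 0.09 in WT and 0.25 in mutants, which is still under the median of all genes. Dropping single libraries also ended the WT call in 4 of 6 cases (edgeR, adjusted p = 0.106 when WT EOM replicate 1 was dropped, 0.0511 without WT EOM replicate 2, 0.0579 without WT trunk replicate 1 and 0.0593 without WT trunk replicate 2). The mutant call was lost without mutant EOM replicate 2 (adjusted p = 0.0592) and without mutant trunk replicate 2 (0.0631). The log2 difference of tgfb1b between genotypes was 0.06 ± 0.16 in EOM (adjusted p = 0.886) and 0.05 ± 0.15 in trunk (adjusted p = 0.877).

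The gene tgfb2 (ENSDARG00000027087.6), whose product needs the co-receptor betaglycan for efficient receptor binding in mammals, was called in none of the comparisons. Its replicates held 5.39, 2.99 and 6.45 CPM in WT EOM and 4.84, 6.05 and 9.54 CPM in mutant EOM. Trunk libraries held 5.84, 7.95 and 8.37 CPM in WT and 9.10, 6.80 and 9.02 CPM in mutants. All 4 groups overlapped with their neighbour in the order of means, from mutant trunk over WT trunk and mutant EOM to WT EOM. The mutant effect was 0.47 ± 0.33 in EOM (95% interval −0.28 to 1.22, edgeR, adjusted p = 0.503) and 0.18 ± 0.19 in trunk (adjusted p = 0.611). Neither muscle comparison passed the threshold, with −0.58 ± 0.29 in WT (adjusted p = 0.122) and −0.30 ± 0.24 in mutants (adjusted p = 0.326), and the latter was called at −0.63 (adjusted p = 0.0116) without mutant EOM replicate 3, the library with the highest EOM level.

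The ligand gene tgfb3 (ENSDARG00000019367.10) had replicates at 33.6, 31.0 and 34.6 CPM in WT EOM and at 37.5, 30.1 and 28.0 CPM in mutant EOM. In trunk they held 13.0, 13.1 and 14.5 CPM in WT and 15.4, 20.6 and 13.8 CPM in mutants. The genotypes overlapped in both muscles, and the EOM libraries lay above all trunk libraries. The log2 fold change of mutant over WT was −0.05 ± 0.13 in EOM (edgeR, adjusted p = 0.875) and 0.29 ± 0.16 in trunk (adjusted p = 0.283). In WT fish tgfb3 was 2.44-fold higher in EOM (log2 fold change 1.29 ± 0.13, adjusted p = 0.000105), and in mutants 1.91-fold higher (0.93 ± 0.16, adjusted p = 0.000597).

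Of the latency genes, ltbp1 (ENSDARG00000056922.7) encodes a matrix protein that binds the latent ligand complex covalently. Its replicates held 15.4, 12.3 and 17.1 CPM in WT EOM and 19.5, 18.6 and 20.8 CPM in mutant EOM. Trunk replicates held 6.87, 5.68 and 6.88 CPM in WT and 6.20, 6.89 and 6.54 CPM in mutants. The mutant EOM libraries all lay above the WT EOM libraries, and in trunk the genotypes overlapped. In EOM the log2 fold change was 0.39 ± 0.14 (95% interval 0.07 to 0.72), with an unadjusted p of 0.0233 and an adjusted p of 0.185 (edgeR); over its 14 alternatives the value stayed between 0.27 and 0.50 and the adjusted p between 0.0664 and 0.387. In trunk it was 0.02 ± 0.15 (95% interval −0.31 to 0.35, adjusted p = 0.955). The difference between these effects, 0.39 ± 0.20, did not pass the threshold (edgeR, fit of all 12 libraries, adjusted p = 0.538). Between muscles ltbp1 was 2.31-fold higher in EOM in WT (log2 fold change 1.21 ± 0.18, adjusted p = 0.000688) and 2.97-fold higher in mutants (1.57 ± 0.11, adjusted p = 7.56e-07).

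The target genes ccn2a (ENSDARG00000042934.6) and ccn2b (ENSDARG00000104292.3) encode secreted matricellular proteins of the connective tissue growth factor type. Replicates of ccn2a held 13.6, 9.32 and 10.1 CPM in WT EOM and 16.0, 10.2 and 12.8 CPM in mutant EOM. In trunk the values were 5.28, 4.68 and 6.66 CPM in WT and 6.15, 8.29 and 4.53 CPM in mutants. Genotypes overlapped in both muscles, and the muscles did not overlap within a genotype. The mutant effect was 0.24 ± 0.20 in EOM (95% interval −0.23 to 0.70, edgeR, adjusted p = 0.59) and 0.19 ± 0.23 in trunk (−0.31 to 0.70, adjusted p = 0.648). In WT fish ccn2a was 1.99-fold higher in EOM than in trunk (log2 fold change 0.99 ± 0.22, adjusted p = 0.00509) and in mutants 2.04-fold higher (1.03 ± 0.23, adjusted p = 0.00381).

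Its paralog ccn2b had mutant effects of opposite sign in the muscles, short of the threshold in each. Its replicates held 10.4, 8.19 and 9.69 CPM in WT EOM and 11.04, 14.4 and 15.6 CPM in mutant EOM. Trunk libraries held 2.83, 3.99 and 2.68 CPM in WT and 2.60, 2.33 and 2.42 CPM in mutants. Every mutant EOM library lay above every WT EOM library, and every mutant trunk library lay under every WT trunk library, though in each muscle the nearest libraries of the genotypes were close together. Among the members, 3 of 8 (tgfb1a, ltbp1 and ccn2b) did not overlap between genotypes in EOM and 1 of 8 (ccn2b) in trunk, where 24.9% and 30.1% of all tested genes did not. The log2 fold change of ccn2b was 0.54 ± 0.16 in EOM (95% interval 0.16 to 0.91), with an unadjusted p of 0.0102 and an adjusted p of 0.121 (edgeR). In trunk it was −0.36 ± 0.20 (95% interval −0.81 to 0.09, adjusted p = 0.305).

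The difference of the mutant effect between muscles was tested directly in a fit of all 12 libraries. It was 0.92 ± 0.26 for ccn2b (95% interval 0.37 to 1.47), more positive in EOM, with an unadjusted p of 0.00315 and an adjusted p of 0.275 (edgeR). This did not pass the threshold, nor did any other member. Over all 19687 genes tested, 0.0914% were called in this comparison (0.0305% more positive in EOM and 0.061% more negative) and 9.8% had an unadjusted p under 0.05, while of the members 0 of 8 were called by edgeR, 0 of 8 by DESeq2 and 1 of 8 had such a p. The ccn2b difference kept its direction in all 19 alternatives, between 0.71 and 1.05, with adjusted p-values of 0.0886 to 0.548. Between muscles ccn2b was 2.99-fold higher in EOM than in trunk in WT (log2 fold change 1.58 ± 0.20, edgeR, adjusted p = 0.000334) and 5.53-fold higher in mutants (2.47 ± 0.16, adjusted p = 4.28e-07). Counts of ccn2b depend on strand: the count of either strand kept 51.6% to 69.4% of its sense reads, while no other member fell under 99.7%. In this layout, reads that fall in genes on both strands are tallied as ambiguous when strand is not used. With that count the mutant effect was 0.70 in EOM (edgeR, adjusted p = 0.102) and −0.33 in trunk (adjusted p = 0.495).

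The feedback inhibitor smad7 (ENSDARG00000016858.8) was not called between the muscles with scaled libraries. Its replicates held 8.45, 8.21 and 7.79 CPM in WT EOM and 8.10, 6.23 and 5.35 CPM in mutant EOM. In trunk they held 6.33, 5.44 and 7.80 CPM in WT and 5.46, 9.38 and 5.58 CPM in mutants. All 4 groups overlapped with their neighbour in the order of means. The log2 fold change of mutant over WT was −0.31 ± 0.16 in EOM (95% interval −0.69 to 0.06, edgeR, adjusted p = 0.358) and 0.06 ± 0.23 in trunk (−0.45 to 0.57, adjusted p = 0.896). That of EOM over trunk was 0.32 ± 0.18 in WT (adjusted p = 0.168) and −0.06 ± 0.22 in mutants (adjusted p = 0.834). With unscaled library totals smad7 came to 0.91 in WT (adjusted p = 0.00558) and 0.70 in mutants (adjusted p = 0.00618), beside medians of all genes of 0.66 and 0.79 under that scaling.

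**Figure D3:**
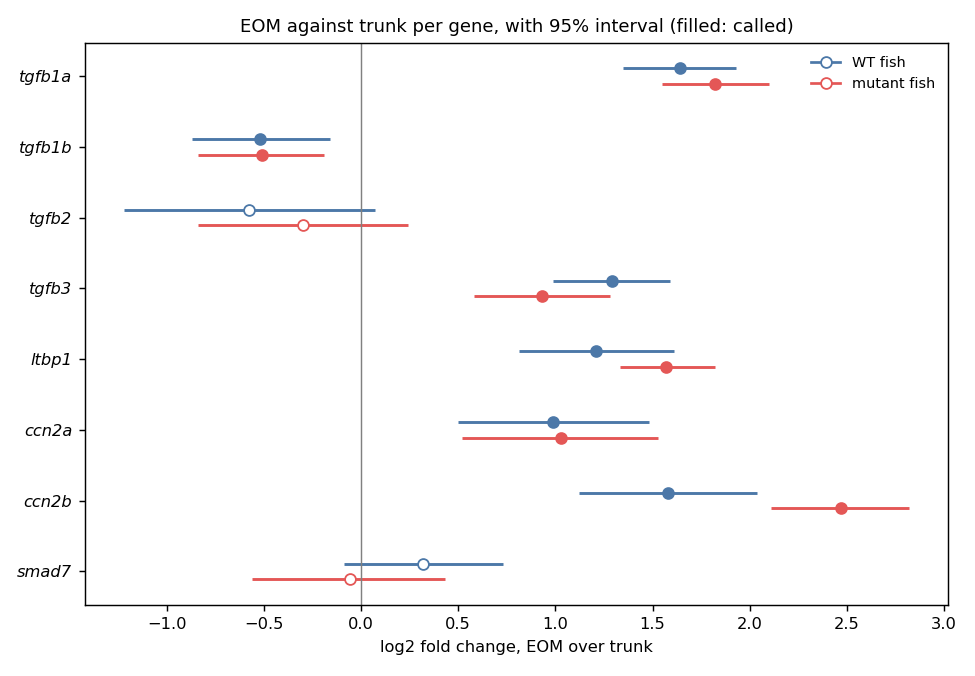
Log2 fold change of EOM over trunk for each of 8 genes in WT fish (blue) and mutant fish (red), with lines for 95% intervals of the edgeR quasi-likelihood fit; filled symbols passed an adjusted p-value under 0.05. In both genotypes 5 genes are higher in EOM, tgfb1b is lower, and tgfb2 and smad7 are open symbols. With unscaled library totals tgfb1b came to 0.09 in WT and 0.25 in mutants, not called in either.

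How the members varied within a muscle was described by centring log2(CPM + 1) within each muscle and correlating over the 12 libraries. The points share the genotype difference and library composition, so these values carry no p-value. The genes given as most like a member are the 2 highest of 13392 compared. How high such picked values lie for unrelated genes was not tested. The highest correlations between members were r = 0.764 for tgfb3 with smad7, 0.709 for tgfb1a with ccn2b and 0.698 for tgfb3 with ccn2a. The lowest were −0.675 for ccn2b with smad7 and −0.639 for tgfb1a with smad7, and the paralogs ccn2a and ccn2b stood at −0.047. Over 13392 genes with a symbol and a mean of at least 1 CPM, those most like ccn2b were fras1 (r = 0.924), which encodes an extracellular matrix protein of basement membranes, and ENPP6 (r = 0.922). Those most like ltbp1 were si:dkey-119f1.1 (r = 0.932) and MAGI3 (r = 0.918), and those most like tgfb1a were EML1 (r = 0.890) and AGMO (r = 0.882). For tgfb1b they were CHST7 (r = 0.874) and RBM5 (r = 0.871), for tgfb2 SLC4A2 (r = 0.921) and tsg101a (r = 0.911), and for tgfb3 crip3 (r = 0.879) and EPHB2 (r = 0.877). For ccn2a they were edn2 (r = 0.854), a gene for an endothelin peptide, and si:ch211-15d5.12 (r = 0.852), and for smad7 LHFPL2 (r = 0.90) and actb1 (r = 0.883), which encodes a cytoplasmic actin. By symbol, no member was found in the RefSeq gene table on a chromosome that carries either desmin gene. A symbol missing from that table would also count as not found there.

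The rest of the pathway was described with lists of its other genes, by counts and medians beside the shares called over all genes. These lists, too, were chosen with earlier results of these data known. Genes of latency and activation are those that tether or release the ligand. In EOM 3 of 26 tested IDs rose and 0 fell, with a median log2 fold change of 0.24, and in trunk 7 rose and 1 fell of 26, with a median of 0.07. Over all genes 2.15% rose and 1.4% fell in EOM, and 4.76% rose and 3.63% fell in trunk. DESeq2 called 7 IDs of this list in EOM and 8 in trunk, beside 1468 and 2005 calls over all genes. The edgeR fits without 1 library called 0 to 3 IDs of the list in EOM and 1 to 8 in trunk, beside 127 to 648 and 488 to 2043 calls over all genes. The gene nrros, whose mammalian counterpart presents latent TGF-beta 1 on macrophages and microglia, rose from 0.488 ± 0.101 to 1.35 ± 0.345 CPM in EOM (SD, n = 3; log2 fold change 1.47 ± 0.31, edgeR, adjusted p = 0.0425). In trunk it rose from 0.274 ± 0.0954 to 1.22 ± 0.385 CPM (2.16 ± 0.39, adjusted p = 0.00934). The macrophage and leukocyte markers were called higher beside it, 7 of 12 tested IDs in EOM and 9 of 11 in trunk, and 0 were called lower in either. The gelatinase gene mmp2 rose in EOM from 237 ± 19.7 to 398 ± 31.8 CPM (log2 fold change 0.75 ± 0.12, edgeR, adjusted p = 0.0194). It rose in trunk as well (0.72 ± 0.14, edgeR, adjusted p = 0.0123). Of the IDs under the symbol MMP14, a membrane protease that activates MMP2, ENSDARG00000002235.8 rose in EOM from 45.7 ± 0.848 to 64.8 ± 3.49 CPM (0.50 ± 0.10, adjusted p = 0.0368). That ID also rose in trunk (0.63 ± 0.12, edgeR, adjusted p = 0.0133). In trunk plaua, a urokinase gene, rose from 0.135 ± 0.0131 to 0.582 ± 0.278 CPM (2.09 ± 0.52, adjusted p = 0.0346), and an ID under the symbol BMP1, a procollagen protease, ENSDARG00000028053.10, fell from 3.03 ± 1.24 to 0.947 ± 0.453 CPM (−1.67 ± 0.38, adjusted p = 0.0284). In EOM both had the same direction short of the threshold, plaua at 1.49 ± 0.41 (edgeR, adjusted p = 0.0943) and that BMP1 ID at −1.50 ± 0.38 (adjusted p = 0.074). The other BMP1 ID, ENSDARG00000028071.10, was not called in EOM (−0.07 ± 0.18, edgeR, adjusted p = 0.884) or trunk (0.08 ± 0.21, adjusted p = 0.845). The WT trunk libraries held nrros at 0.178 to 0.369 CPM, not far above the floor of 3 reads (0.0669 to 0.0745 CPM there). They held plaua at 0.123 to 0.149 CPM, near that floor. The paralog plaub also rose in trunk (0.93 ± 0.15, edgeR, adjusted p = 0.00489), a call that no removal of a library ended. In EOM plaub was short of the threshold (0.51 ± 0.12, edgeR, adjusted p = 0.0618). Leaving out 1 library at a time ended several of these calls. Without mutant EOM replicate 2 the adjusted p in EOM was 0.158 for nrros, 0.104 for mmp2 and 0.166 for MMP14, and in all they were lost in 6, 3 and 5 of 6 such fits. Without mutant trunk replicate 1 it was 0.0537 for nrros, 0.166 for plaua and 0.116 for BMP1 in trunk, and they were lost in 1, 4 and 3 of 6. The trunk calls of mmp2 and that MMP14 ID were each lost in 3 of 6. Their adjusted p reached 0.0669 without WT trunk replicate 1 and 0.0728 without mutant trunk replicate 1 (edgeR).

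Receptor and SMAD genes mostly stayed short of the threshold. Of 10 receptor IDs 0 were called in EOM by edgeR and 0 by DESeq2, while 2 had an unadjusted p under 0.05, and in trunk 1 rose and 1 fell, with medians of 0.19 and −0.30. Beside these, edgeR called 2.15% of all genes higher and 1.4% lower in EOM, and 4.76% and 3.63% in trunk. An unadjusted p under 0.05 was found for 18.5% of all genes in EOM and 24.8% in trunk (edgeR). In trunk an ID under the symbol TGFBR2, the type II receptor, ENSDARG00000034541.6, rose from 50.5 ± 8.72 to 75.3 ± 9.24 CPM (log2 fold change 0.58 ± 0.16, edgeR, adjusted p = 0.0446), a call that each of the 6 removals of a library ended (adjusted p up to 0.165, without mutant trunk replicate 2). In EOM that ID had 83.9 ± 4.57 CPM in WT and 106.9 ± 8.16 CPM in mutants (0.35 ± 0.11, adjusted p = 0.137). The other TGFBR2 ID, ENSDARG00000059363.6, was not called in trunk (−0.19 ± 0.17, edgeR, adjusted p = 0.527) or EOM (0.36 ± 0.21, adjusted p = 0.422). An ID under ACVR1B, a type I receptor of activins, ENSDARG00000052142.7, fell in trunk from 3.04 ± 0.52 to 1.5 ± 0.354 CPM (−1.01 ± 0.24, adjusted p = 0.0286), lost in 3 of 6 such fits (up to 0.119, without the same library). The other ACVR1B ID, ENSDARG00000018968.9, was not called in trunk, with 40.7 ± 6.07 CPM in WT and 46.7 ± 3.12 CPM in mutants (0.21 ± 0.14, edgeR, adjusted p = 0.402). Of 23 SMAD signalling IDs 0 were called in EOM and 0 in trunk by edgeR and by DESeq2, 5 had an unadjusted p under 0.05 in each muscle, and the medians were 0.07 and −0.04. The ID under SKI, a SMAD corepressor, had 30.9 ± 1.93 CPM in the WT EOM libraries and 39.6 ± 3.92 CPM in those of the mutant (0.36 ± 0.12, adjusted p = 0.142).

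Of a list of other genes taken as targets of the pathway, mostly matrix genes, some rose. Whether each listed gene, TIMP2 among them, is induced by TGF-beta in these muscles was not tested. In EOM 3 of 39 tested IDs rose and 0 fell, with a median of 0.04, and in trunk 5 of 38 rose and 0 fell, with a median of 0.29. The shares over all genes were 2.15% higher and 1.4% lower in EOM, and 4.76% higher and 3.63% lower in trunk. DESeq2 called 4 IDs of this list in EOM and 9 in trunk, beside 1468 and 2005 calls over all genes. The edgeR fits without 1 library called 0 to 4 and 2 to 12 IDs, beside 127 to 648 and 488 to 2043 calls over all genes. An ID under TIMP2, an inhibitor of metalloproteinases, ENSDARG00000061226.6, rose from 32.7 ± 1.29 to 61.4 ± 12.8 CPM in EOM (log2 value 0.91 ± 0.15, edgeR, adjusted p = 0.0212) and from 18.9 ± 1.36 to 46.5 ± 8.93 CPM in trunk (1.31 ± 0.16, adjusted p = 0.00122). The trunk call survived the removal of any 1 of the 6 libraries, and the EOM call was lost in 3 of 6 (adjusted p up to 0.0963, without mutant EOM replicate 2). The other TIMP2 ID, ENSDARG00000075261.4, was not called in EOM (0.11 ± 0.14, edgeR, adjusted p = 0.752) or trunk (0.60 ± 0.22, adjusted p = 0.127). In EOM the collagen gene col1a1a rose from 88.9 ± 6.44 to 145 ± 27.9 CPM (0.70 ± 0.15, adjusted p = 0.0485) and a fibronectin ID under FN1, ENSDARG00000006526.12, from 203 ± 15.5 to 306 ± 7.47 CPM (0.59 ± 0.11, adjusted p = 0.0322). These calls were lost in 4 and 5 of 6 such fits, with adjusted p up to 0.191 without mutant EOM replicate 2 and 0.139 without mutant EOM replicate 1. In trunk neither was called, at 0.83 ± 0.30 for col1a1a (edgeR, adjusted p = 0.132) and 0.29 ± 0.15 for that FN1 ID (adjusted p = 0.246). In trunk tgfbi, a matrix gene named for its induction by TGF-beta, rose from 31.2 ± 2.27 to 54.0 ± 8.29 CPM (0.80 ± 0.14, adjusted p = 0.00919), and a periostin ID under POSTN, ENSDARG00000043806.7, from 42.2 ± 1.5 to 67.3 ± 4.13 CPM (0.68 ± 0.12, adjusted p = 0.00929). Each was lost in 1 of 6 such fits, tgfbi without mutant trunk replicate 2 (adjusted p = 0.0517) and POSTN without mutant trunk replicate 1 (0.0553). In EOM neither was called, at −0.09 ± 0.13 for tgfbi (edgeR, adjusted p = 0.754) and 0.24 ± 0.13 for that POSTN ID (adjusted p = 0.371). The other POSTN ID, ENSDARG00000104267.3, was not called either, at −0.72 ± 0.21 in EOM (edgeR, adjusted p = 0.103) and 0.61 ± 0.18 in trunk (adjusted p = 0.0668). The matrix gene sparc had 703 ± 164 CPM in the WT EOM libraries and 758 ± 66.0 CPM in those of the mutant (0.11 ± 0.17, adjusted p = 0.786). Several of these genes also serve as fibroblast markers above, of which 1 of 12 tested IDs rose in EOM and 3 of 12 in trunk.

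The YAP and TAZ list mixes target genes with genes of that pathway itself, among them yap1, wwtr1 (which encodes TAZ) and TEAD and VGLL genes. Its counts and medians are therefore not those of target genes alone. In EOM 0 of 20 tested IDs were called by edgeR and 0 by DESeq2, 2 had an unadjusted p under 0.05, and the median was −0.07, and in trunk 1 rose and 3 fell of 19, with a median of −0.31. For this list and the next, the shares called over all genes were 3.56% in EOM, and 4.76% higher and 3.63% lower in trunk. In EOM 18.5% of all genes had an unadjusted p under 0.05 (edgeR). In trunk an ID under ANKRD1, a muscle stress protein, ENSDARG00000075263.4, rose from 7.42 ± 2.09 to 15.4 ± 4.81 CPM (log2 fold change 1.06 ± 0.26, edgeR, adjusted p = 0.0376), which 5 of 6 removals of a library ended (adjusted p up to 0.123, without WT trunk replicate 1). The Hippo kinase gene lats2 fell from 12.5 ± 1.73 to 6.78 ± 0.895 CPM (−0.87 ± 0.16, adjusted p = 0.0102, and 0.0564 without mutant trunk replicate 1) and the TEAD cofactor gene vgll2a from 3.12 ± 1.04 to 1.21 ± 0.507 CPM (−1.36 ± 0.35, adjusted p = 0.0452, lost in 5 of 6 such fits, and 0.124 without WT trunk replicate 1). Of 21 IDs of the BMP branch, which shares SMAD4 with TGF-beta, 0 were called in EOM by edgeR and 0 by DESeq2, 3 had an unadjusted p under 0.05 there, and 2 fell in trunk. They were IDs under BMPR2 (ENSDARG00000020057.10), from 9.08 ± 1.63 to 4.73 ± 0.576 CPM (−0.93 ± 0.17, adjusted p = 0.0105), and under BMPR1A (ENSDARG00000105045.2), from 11 ± 0.575 to 7.40 ± 0.505 CPM (−0.56 ± 0.14, adjusted p = 0.0303), both receptors. Without mutant trunk replicate 2 their adjusted p was 0.0632 and 0.119. No ID of any of these lists was called in the difference of the mutant effect between muscles by edgeR, where 13 of 129 IDs had an unadjusted p under 0.05 and DESeq2 called 2 of the target list. Over all genes, edgeR called 0.0914% there, 9.8% had such a p, and DESeq2 called 192 genes.

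**Figure D4:**
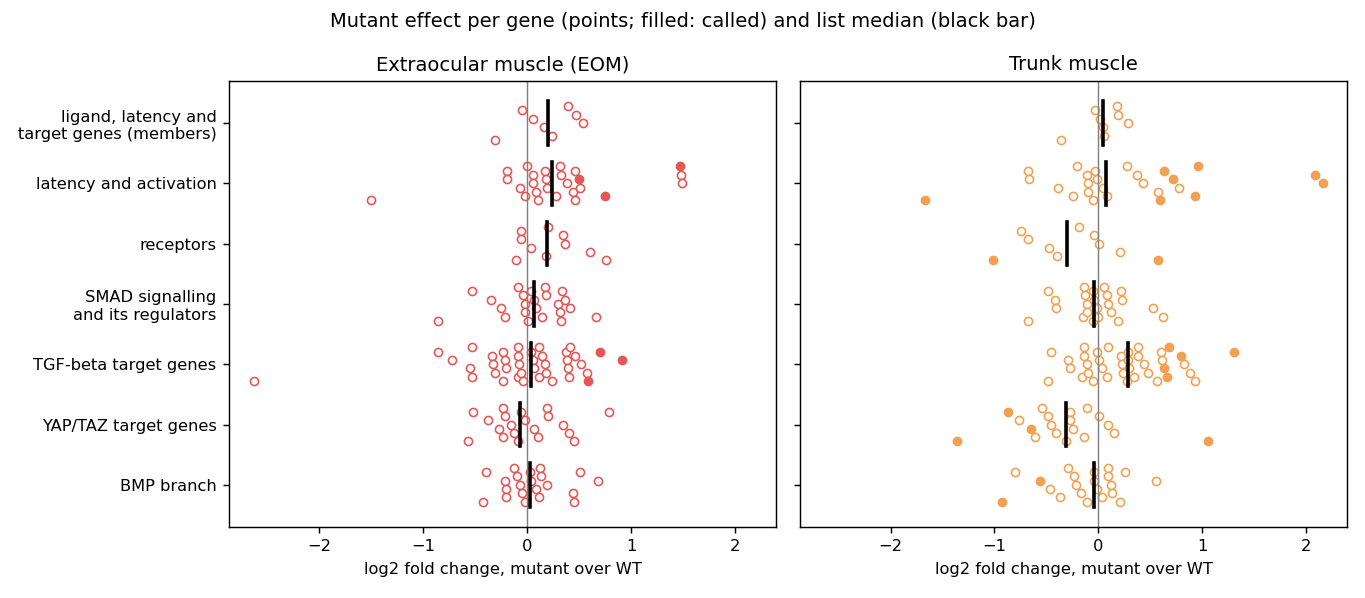
Log2 fold change of mutant over WT in EOM (left) and trunk (right) for each tested gene of the members and of 6 pathway lists; filled points passed an adjusted p-value under 0.05, black bars are list medians, and vertical spread within a row only separates points. No member is filled in either muscle, and filled points are most frequent in trunk among the genes of latency and activation, where 7 rose and 1 fell. The row of YAP/TAZ target genes also holds genes of that pathway itself.

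Between the muscles of WT fish, many genes of these lists were called as well, beside 25.6% of all genes higher and 23.2% lower in EOM. Of 39 target IDs 21 were higher and 5 lower in EOM, with a median log2 fold change of 0.66, and of 27 latency and activation IDs 11 were higher and 4 lower, with a median of 0.48. Of 10 receptor IDs 1 was higher and 4 lower, and of 19 YAP and TAZ IDs 1 was higher and 9 lower, with medians of −0.26 and −0.64, while of 23 SMAD signalling IDs 6 were higher and 6 lower. Without scaling, the median of all genes itself moved to 0.66. The integrin gene itgb6, whose mammalian product releases latent TGF-beta, was at 13.4 ± 1.34 CPM in EOM and 1.83 ± 0.295 CPM in trunk (log2 fold change 2.87 ± 0.19, edgeR, adjusted p = 1.04e-05). The POSTN ID ENSDARG00000104267.3 was at 17.7 ± 5.66 CPM in EOM and 115 ± 29.7 CPM in trunk (−2.70 ± 0.28, adjusted p = 0.000106), and the FN1 ID ENSDARG00000019815.11 was at 59.2 ± 11.1 CPM in EOM and 13 ± 2.1 CPM in trunk (2.19 ± 0.20, adjusted p = 5.12e-05). Both IDs under TGFBR1, the type I receptor, were lower in EOM: ENSDARG00000017494.9 had 0.421 ± 0.117 CPM in EOM and 1.61 ± 0.503 CPM in trunk (−1.93 ± 0.37, adjusted p = 0.00262), and ENSDARG00000042259.7 had 0.349 ± 0.165 CPM in EOM and 1.25 ± 0.341 CPM in trunk (−1.83 ± 0.44, adjusted p = 0.00823). The IDs under TGFBR2 went opposite ways. ENSDARG00000034541.6 was higher in EOM (0.74 ± 0.16, edgeR, adjusted p = 0.00484) and ENSDARG00000059363.6 lower (−1.33 ± 0.22, adjusted p = 0.00118). Fibroblast markers differed beside these genes, with 10 of 12 tested IDs higher in EOM and 2 lower, and that list shares members with the target list.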

How the data were processed

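The authors deposited 1 table of raw read counts for each library, laid out like STAR's output per gene, as the values show. Libraries were stranded with poly-A selection, per the labels' protocols. The submitters' processing notes name STAR, DESeq2 and the build GRCz11; versions and annotation are not given in the sources used here. The second single-strand count held 2.77% to 3.21% of stranded gene reads, so the first was taken as the sense count. Tallies of reads outside any gene's count were left out: of a library, 7.93% to 14.3% was unmapped, 9.96% to 11.4% mapped to several places, 5.93% to 9.57% hit no gene and 1.34% to 1.59% was ambiguous. Reads with several places can lower the counts of similar paralogs.

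Symbols came from a table pairing 29201 of the IDs with a symbol, often human-style and shared by zebrafish copies; shared symbols are given with the ID. The ID under CCN2 was taken as ccn2a, as ccn2b has its own. RefSeq's table of GRCz12tu, another build, served only to look up the chromosomes of the members and of the desmin genes by symbol.

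The test was that of edgeR 4.0.16, run in R 4.3.3 (TMM, filterByExpr, robust quasi-likelihood). The fit was also run on simulated counts, with an outcome that is not given here. Groups came from sample titles. Genotype and muscle comparisons used their own 6 libraries and the difference all 12. SEs and 95% intervals follow from the F statistic. DESeq2 1.42.0, other scalings, filters and strand counts, a replicate block and leaving out each library were tried. The text names all members, up to 3 called genes per list and comparison by size of change and the highest uncalled one (a selection is given), and the 2 genes most like each member. For some named genes it adds values in the other muscle or of another copy. Members and lists were chosen with earlier results of these data known. Intervals cover the spread between libraries, not annotation errors.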

Additional observations from a re-analysis of the deposited data

Results flagged for a closer look

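The mutant effect on ccn2b had opposite signs in the muscles: all 3 mutant libraries lay above all 3 WT libraries in EOM and under them in trunk. Of all tested genes, 24.9% in EOM and 30.1% in trunk had genotypes that did not overlap. The members were searched for libraries apart in opposite directions, and the share of all genes with this was not counted. In trunk the 95% interval of the ccn2b effect reached from −0.81 to 0.09. The difference of the log2 fold changes was 0.92 (EOM minus trunk). The test of the difference itself did not pass the threshold (edgeR, fit of all 12 libraries, adjusted p = 0.275). Macrophage and leukocyte markers were called higher in mutants of both muscles, 7 of 12 tested IDs in EOM and 9 of 11 in trunk. Of all genes, 2.15% and 4.76% were. The part of these markers in the ccn2b values was not tested.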

How the results depend on the processing

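Under every alternative tried, 0 members were called between genotypes in EOM, in trunk and in the difference of effects. Between muscles 5 to 6 members were called in WT and 5 to 7 in mutants. Of 600 member values under alternatives, 558 kept their direction and their side of the threshold, 7 lost and 2 gained a call with the sign unchanged, and 33 changed sign. With unscaled totals, which by construction move the median of all genes, signs changed for tgfb3 in EOM (0.04), for tgfb1b, ltbp1 and smad7 in trunk (−0.0025, −0.03 and −0.01), for tgfb1b (0.09) and tgfb2 (0.04) between WT muscles, and for tgfb1b (0.25), tgfb2 (0.45) and smad7 (0.70) between mutant muscles. Among these, tgfb1b also lost its call in WT (edgeR, adjusted p = 0.694) and in mutants (0.18), and smad7 gained one in mutants (0.00618). The share of calls that were higher moved from 60.6% to 73.7% in EOM, from 52.4% to 82.4% between WT muscles and from 51.6% to 87.9% between mutant muscles. Where leaving out 1 library turned a sign, the log2 fold changes ranged in EOM from −0.05 to 0.15 for tgfb1b and from −0.18 to 0.02 for tgfb3. In trunk they ranged from −0.15 to 0.04 for tgfb1a, from −0.04 to 0.13 for tgfb1b, from −0.07 to 0.08 for ltbp1, from −0.03 to 0.38 for ccn2a and from −0.22 to 0.22 for smad7. In the difference they ranged from −0.07 to 0.12 for tgfb1b, from −0.02 to 0.53 for tgfb2 and from −0.13 to 0.29 for ccn2a, and between mutant muscles from −0.24 to 0.23 for smad7. All of these were short of the threshold in the values reported above.

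Over all genes, 675 calls in EOM became 1468 with DESeq2 and 127 to 648 when a library was left out, and 1456 calls in trunk became 488 to 2043. The 18 calls in the difference became 192 with DESeq2, 35 without a filter, 11 at a mean of at least 50 reads, and 5 to 19 when a library was left out. Among the named pathway genes, unscaled totals ended the trunk calls of plaua, TGFBR2 and ANKRD1, the fit of all 12 libraries those of ACVR1B and BMPR2 in trunk and of col1a1a in EOM, RLE scaling that of col1a1a, and a mean of at least 50 reads that of vgll2a; the replicate block ended those of ANKRD1, vgll2a and BMPR1A. Apart from fewer libraries or genes tested, the cause was not tested. The labels do not say whether the replicate numbers pair the libraries. Deviations of same-numbered libraries correlated at −0.37 to 0.506, and with 3 libraries a group these values cannot decide it. With the replicate block, tgfb1b between WT muscles was no longer called (−0.52, edgeR, adjusted p = 0.0656), and the calls over all genes were 1191 in EOM, 1238 in trunk, 6 in the difference, 7511 between WT muscles and 9643 between mutant muscles. With 3 libraries a group, changes inside the printed intervals are beyond what these data resolve.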

Other observations

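Genes of the BMP branch differed between the muscles as well. In WT fish bmp7b, a BMP ligand gene, had 17.8 ± 3.35 CPM in EOM and 0.839 ± 0.321 CPM in trunk (log2 fold change 4.40 ± 0.29, edgeR, adjusted p = 9.85e-06), and id2b, a gene of the BMP-responsive ID family, had 11.8 ± 2.15 and 1.71 ± 0.786 CPM (2.79 ± 0.33, adjusted p = 0.000219). The BMPR2 ID ENSDARG00000020057.10 was lower in EOM, at 1.34 ± 0.599 against 9.08 ± 1.63 CPM (−2.76 ± 0.31, adjusted p = 0.000178). Of 21 tested BMP branch IDs 10 were higher and 3 lower in WT EOM, where 25.6% of all genes were higher and 23.2% lower.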
